A study of Saccharomyces cerevisiae with 8 samples.

Results

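The 9 genes described here carry iron into the budding yeast Saccharomyces cerevisiae, and they were listed by name for their role in uptake, with earlier results of these arrays known. They are the ferroxidase gene FET3 (YMR058W) and the permease gene FTR1 (YER145C), the cell wall mannoprotein genes FIT1 (YDR534C), FIT2 (YOR382W) and FIT3 (YOR383C), and the siderophore transporter genes ARN1 (YHL040C), ARN2 (YHL047C), SIT1 (YEL065W) and ENB1 (YOL158C). They make up 9 of the 6576 systematic names on the array. All 9 were among the 6240 genes tested, and each was well above background on 8 of 8 arrays with no saturated spot.

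Budding yeast takes up iron at the cell surface by 2 routes. In the reductive route, surface reductases release ferrous iron, which the copper enzyme Fet3 oxidises again and passes to its partner permease Ftr1. In the other route, transporters of the Arn family import whole iron-siderophore complexes, which other microbes make and yeast itself does not, and the Fit mannoproteins hold such complexes in the cell wall. The transcription factors Aft1 and Aft2 activate the genes of both routes when iron is scarce.

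The study compared 3 yeast strains by single-colour Agilent microarray, with 8 arrays on 1 slide. SSZ1OEΔire1Δscj1 (n = 3) overexpressed SSZ1, a ribosome-bound Hsp70-type chaperone gene, and lacked IRE1, the sensor of the unfolded protein response, and SCJ1, which encodes a J-protein of the endoplasmic reticulum. SSZ1OEΔire1 (n = 2) overexpressed SSZ1 and lacked IRE1, and Δire1 (n = 3) lacked IRE1 alone. The IRE1 deletion was therefore carried by every strain, the one used for comparison included, and no strain with an intact IRE1 was analysed here. Both SSZ1OEΔire1 arrays and Δire1 replicates 1 and 2 lay in slide row 1. All SSZ1OEΔire1Δscj1 arrays and Δire1 replicate 3 lay in slide row 2. Between the overexpressing strains, loss of SCJ1 and slide row therefore cannot be told apart. Cells of each strain grew in synthetic medium at 30 °C with shaking at 200 rpm to an OD600 of 0.2 to 0.3, in early log phase, with no iron limitation or iron addition named in the labels. The promoter or plasmid behind the overexpression is not given in the labels. The labels call the samples independent and give each its own strain number, but they do not say whether replicates were separate cultures or clones, so the p-values measure only how far these samples spread, and that spread may be technical.

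The genotypes were readable in the arrays. SSZ1 read 5.42, 5.19 and 5.51 in SSZ1OEΔire1Δscj1, 5.61 and 6.07 in SSZ1OEΔire1, and 3.06, 2.79 and 3.05 in Δire1, on the log2 scale relative to the array's 75th percentile that is used for every level below. SCJ1 did not reach the well-above-background level in SSZ1OEΔire1Δscj1, at least 317-fold below Δire1, and IRE1 reached it on 0 of 8 arrays. The 75th percentile of the raw signal lay between 5037 and 10020, and 90.5% to 95.9% of spots per array were well above background. Δire1 replicate 2 stood apart from replicates 1 and 3, with median differences over all tested genes of 0.214 and 0.196, against 0.056 between replicates 1 and 3. LEU2 also split the Δire1 group, at 2.73 in replicate 3 against 0.48 and −0.02 in replicates 1 and 2. On the overexpressing arrays LEU2 read 2.12 to 2.46, close to Δire1 replicate 3. URA3 read 3.21 to 3.58 in Δire1 and 2.18 to 2.95 on the overexpressing arrays, without overlap. In SSZ1OEΔire1Δscj1, HIS3 was −2.12 in replicate 2 against −3.65 and −3.78 in replicates 1 and 3. LEU2, URA3 and HIS3 were named after their values were seen, and what set these arrays apart was not tested. Some mating genes also differed between strains. The summed signal of 6 a-cell genes, relative to the 75th percentile, was 3.78 to 5.04 in SSZ1OEΔire1Δscj1, 6.06 to 7.96 in SSZ1OEΔire1 and 7.32 to 7.65 in Δire1. That of 4 alpha-cell genes was 0.286 to 0.318, 0.164 to 0.211 and 0.139 to 0.163 in the same order, and no marker of either list was at background throughout a strain. At a limma adjusted p under 0.05, SSZ1OEΔire1Δscj1 had 6 of 6 a-cell genes lower than Δire1, where 16.9% of all genes were. Of the 4 alpha-cell genes, STE3 and MF(ALPHA)1 were higher there, where 21.4% of all genes were. In SSZ1OEΔire1 against Δire1, 0 of 6 a-cell genes and STE3 alone of the alpha-cell genes passed, where 11.4% of all genes did. MF(ALPHA)2 and SAG1 passed in neither. The part of the mating genes in the iron results was not tested.

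The clearest differences among the iron uptake genes lay in FIT2 and FIT1, which encode cell wall mannoproteins. FIT2 rose in both SSZ1-overexpressing strains, by 2.44-fold in SSZ1OEΔire1Δscj1 and 2.09-fold in SSZ1OEΔire1 against Δire1. FIT1 rose 1.65-fold in SSZ1OEΔire1Δscj1 against Δire1 and 1.95-fold against SSZ1OEΔire1. FTR1 fell to 0.648 times its Δire1 level in SSZ1OEΔire1Δscj1, a call that 11 of 18 other ways of processing the arrays did not keep. No call was made for FET3, FIT3 or any of the 4 siderophore transporters in any of the 3 comparisons. In SSZ1OEΔire1Δscj1 against Δire1, 3 of the 9 genes were called (2 higher, 1 lower), where 38.3% of all genes tested were (21.4% higher, 16.9% lower). In SSZ1OEΔire1 against Δire1, 1 of 9 was called, higher, where 11.4% of all genes were (7.52% higher, 3.91% lower). In SSZ1OEΔire1Δscj1 against SSZ1OEΔire1, 1 of 9 was called, higher, where 11.9% of all genes were (6.3% higher, 5.61% lower). A gene was called at a limma adjusted p under 0.05, and these shares of calls among the iron genes lay near those of the whole array. Each array measured RNA of a whole culture, so fewer cells with a transcript and less transcript per cell cannot be told apart.

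FIT2, whose product is a GPI-anchored mannoprotein that helps the wall retain iron-siderophore complexes, read −3.52, −3.60 and −3.66 in SSZ1OEΔire1Δscj1, −3.96 and −3.67 in SSZ1OEΔire1, and −4.73, −5.08 and −4.83 in Δire1. All 5 arrays of the overexpressing strains lay above all 3 Δire1 arrays, with no overlap. Against Δire1, the log2 difference was 1.29 for SSZ1OEΔire1Δscj1 (SE 0.12, 95% confidence interval 1.02 to 1.56, limma adjusted p = 0.000577). It was 1.06 for SSZ1OEΔire1 (SE 0.13, interval 0.76 to 1.37, limma adjusted p = 0.0053). These comparisons share the 3 Δire1 arrays. Between the overexpressing strains themselves, the 3 SSZ1OEΔire1Δscj1 arrays lay above both SSZ1OEΔire1 arrays, but the difference of 0.23 did not pass (interval −0.08 to 0.53, limma adjusted p = 0.273). The SSZ1OEΔire1Δscj1 call held in all 18 alternatives, from 0.93 to 1.70. The SSZ1OEΔire1 call was lost without SSZ1OEΔire1 replicate 2 (0.91, limma adjusted p = 0.0566) and within the slide row that held both groups (1.09, limma adjusted p = 0.0754).

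FIT1 encodes a wall mannoprotein of the same kind. It read −3.30, −3.26 and −3.36 in SSZ1OEΔire1Δscj1, −4.50 and −4.05 in SSZ1OEΔire1, and −3.94, −4.14 and −4.02 in Δire1. The SSZ1OEΔire1Δscj1 arrays lay within 0.10 of each other and above all 5 others, while the arrays of SSZ1OEΔire1 and Δire1 overlapped. The difference between SSZ1OEΔire1Δscj1 and Δire1 was 0.72 (SE 0.12, interval 0.44 to 1.0, limma adjusted p = 0.00441), called in all 18 alternatives with a range of 0.42 to 1.14. Between SSZ1OEΔire1Δscj1 and SSZ1OEΔire1, which differ in both SCJ1 and slide row, it was 0.96 (SE 0.13, interval 0.65 to 1.28, limma adjusted p = 0.0112). Leaving out SSZ1OEΔire1 replicate 1 ended that call (0.74, limma adjusted p = 0.0972), as did slide row as a block (0.95, limma adjusted p = 0.209). SSZ1OEΔire1 against Δire1 gave −0.24, which did not pass (interval −0.55 to 0.07, limma adjusted p = 0.284).

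FIT3 lies next to FIT2 on the chromosome and encodes the remaining mannoprotein of the family. Its levels were −2.81, −2.36 and −2.87 in SSZ1OEΔire1Δscj1, −2.96 and −2.93 in SSZ1OEΔire1, and −2.70, −2.87 and −2.75 in Δire1. SSZ1OEΔire1Δscj1 replicate 2 was the highest of the 8 arrays, and its other replicates lay within the Δire1 range or at its low end. Against Δire1 the difference was 0.09 for SSZ1OEΔire1Δscj1 (interval −0.22 to 0.41, limma adjusted p = 0.614) and −0.17 for SSZ1OEΔire1 (interval −0.53 to 0.19, limma adjusted p = 0.505). Without SSZ1OEΔire1Δscj1 replicate 2 the first of these was −0.07.

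**Figure D1:**
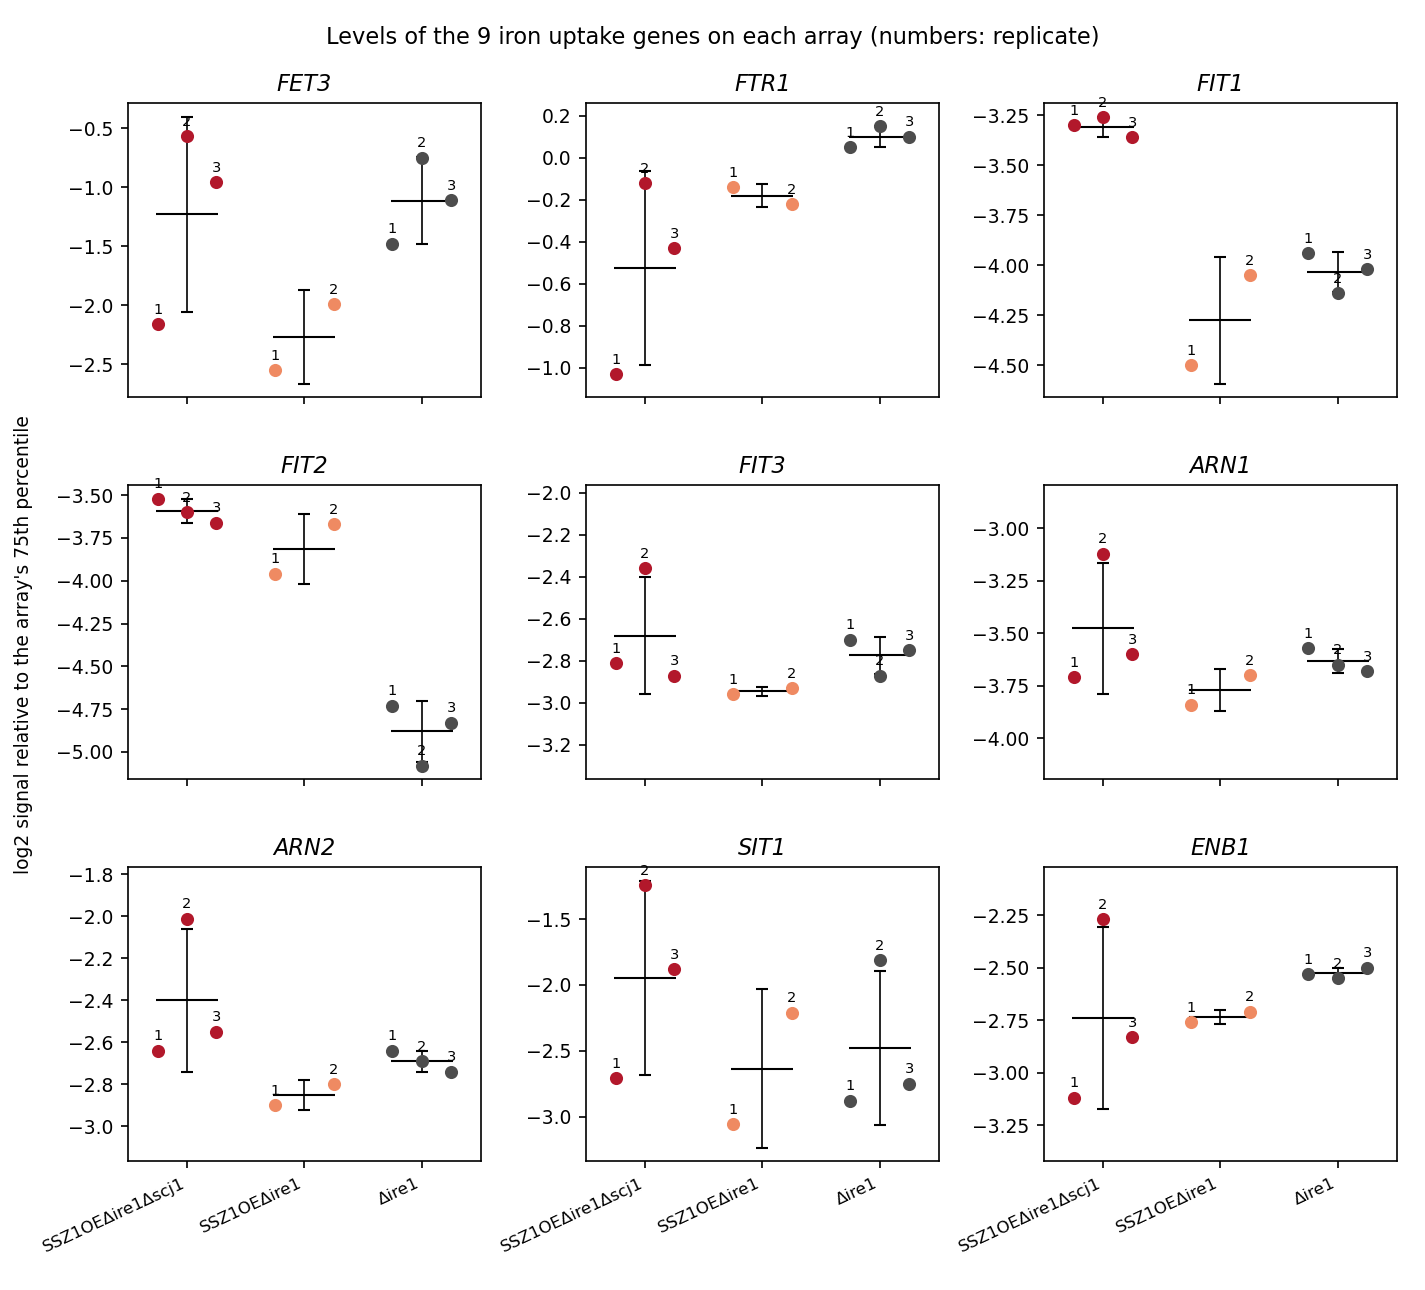
Level of each iron uptake gene on each of the 8 arrays, in log2 units above or below the 75th percentile of its array (vertical axis), by strain (horizontal axis); points are arrays with their replicate number, long bars are group means and error bars are SDs (n = 3, 2 and 3). FIT2 separates the 5 overexpressing arrays from the 3 Δire1 arrays, FIT1 separates the 3 SSZ1OEΔire1Δscj1 arrays from the rest, and the axes differ between panels.

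In the reductive route, the multicopper ferroxidase gene FET3 had the widest spread. It read −2.16, −0.57 and −0.96 in SSZ1OEΔire1Δscj1, −2.55 and −1.99 in SSZ1OEΔire1, and −1.48, −0.75 and −1.11 in Δire1. Both SSZ1OEΔire1 arrays lay below all 3 Δire1 arrays, whereas the SSZ1OEΔire1Δscj1 arrays ran from below the Δire1 range to above it. The difference between SSZ1OEΔire1 and Δire1 was −1.15 (SE 0.45, interval −2.20 to −0.11), with an unadjusted p of 0.0344 and a limma adjusted p of 0.141. It passed in 1 of 18 alternatives, without SSZ1OEΔire1Δscj1 replicate 1 (limma adjusted p = 0.0477), and the range over all was 0.0477 to 0.434. SSZ1OEΔire1Δscj1 against SSZ1OEΔire1 gave 1.04 (interval −0.01 to 2.08, limma adjusted p = 0.159) and against Δire1 −0.12 (interval −1.05 to 0.82, limma adjusted p = 0.834).

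FTR1, the permease gene, did not follow FET3 across the strains. Its levels were −1.03, −0.12 and −0.43 in SSZ1OEΔire1Δscj1, −0.14 and −0.22 in SSZ1OEΔire1, and 0.05, 0.15 and 0.10 in Δire1. All 5 overexpressing arrays lay below the 3 Δire1 arrays, which differed among themselves by only 0.10. In SSZ1OEΔire1Δscj1 it was lower by a log2 difference of −0.63 (SE 0.20, interval −1.10 to −0.15, limma adjusted p = 0.0446), close to the threshold. The adjusted p ran from 0.0169 to 0.509 over the alternatives, and the call was lost without any 1 of the 3 Δire1 arrays, either SSZ1OEΔire1 array or SSZ1OEΔire1Δscj1 replicate 3. Without SSZ1OEΔire1Δscj1 replicate 1 the difference was −0.37 (limma adjusted p = 0.0493), and with spike-in scaling it was −0.21 (limma adjusted p = 0.509). In SSZ1OEΔire1 the difference of −0.28 did not pass (interval −0.81 to 0.25, limma adjusted p = 0.461), and the 2 overexpressing strains differed by −0.34 (interval −0.88 to 0.19, limma adjusted p = 0.332).

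Among the siderophore transporters, ARN1, which imports ferrichromes, read −3.71, −3.12 and −3.60 in SSZ1OEΔire1Δscj1, −3.84 and −3.70 in SSZ1OEΔire1, and −3.57, −3.65 and −3.68 in Δire1. ARN2, the transporter of triacetylfusarinine, read −2.64, −2.01 and −2.55 in SSZ1OEΔire1Δscj1, −2.90 and −2.80 in SSZ1OEΔire1, and −2.64, −2.69 and −2.74 in Δire1. For both, SSZ1OEΔire1Δscj1 replicate 2 was the highest of the 8 arrays and the SSZ1OEΔire1 pair lay below every Δire1 array. ARN2 differed between SSZ1OEΔire1Δscj1 and SSZ1OEΔire1 by 0.45 (interval 0.04 to 0.86, unadjusted p 0.0355, limma adjusted p = 0.128), without overlap of the arrays. Its differences from Δire1 were 0.29 in SSZ1OEΔire1Δscj1 (limma adjusted p = 0.181) and −0.16 in SSZ1OEΔire1 (limma adjusted p = 0.593). Those of ARN1 were 0.16 (limma adjusted p = 0.422) and −0.14 (limma adjusted p = 0.627).

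SIT1, which imports ferrioxamine-type siderophores, read −2.71, −1.24 and −1.88 in SSZ1OEΔire1Δscj1, −3.06 and −2.21 in SSZ1OEΔire1, and −2.88, −1.81 and −2.75 in Δire1. The 3 groups overlapped, and in each of them 1 array lay well above its lowest. ENB1, the enterobactin transporter gene, read −3.12, −2.27 and −2.83 in SSZ1OEΔire1Δscj1, −2.76 and −2.71 in SSZ1OEΔire1, and −2.53, −2.55 and −2.50 in Δire1. Its SSZ1OEΔire1 and Δire1 arrays were each tightly grouped and did not overlap, with SSZ1OEΔire1 lower, while the SSZ1OEΔire1Δscj1 arrays lay on both sides. SIT1 differed from Δire1 by 0.54 in SSZ1OEΔire1Δscj1 (interval −0.48 to 1.56, limma adjusted p = 0.361) and by −0.16 in SSZ1OEΔire1 (interval −1.30 to 0.98, limma adjusted p = 0.868). ENB1 differed by −0.22 (interval −0.66 to 0.23, limma adjusted p = 0.392) and −0.21 (interval −0.71 to 0.29, limma adjusted p = 0.561). The intervals of SIT1 are wide enough to hold a 2-fold difference, so these arrays do not show that its level was alike in the strains. Without SSZ1OEΔire1Δscj1 replicate 2, ENB1 passed as lower in SSZ1OEΔire1Δscj1 than in Δire1 (−0.45, limma adjusted p = 0.0204), and 4 of the 9 genes were then called in that comparison.

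**Figure D2:**
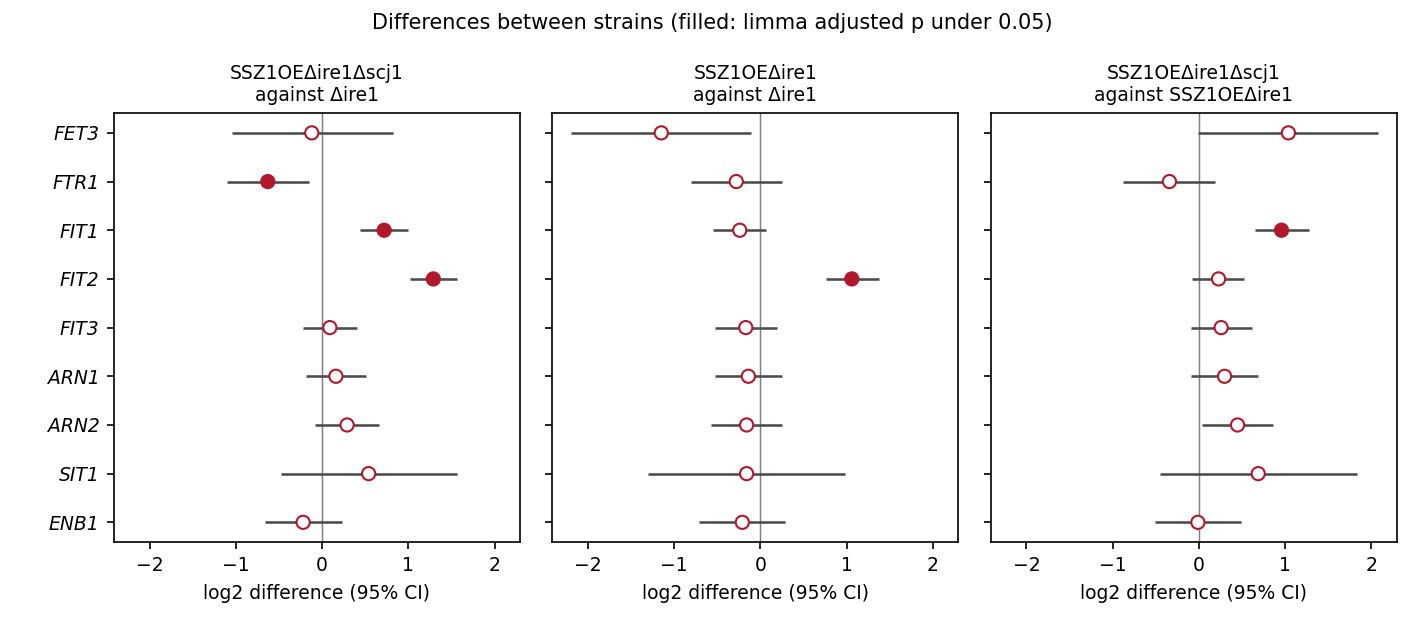
Log2 difference of each iron uptake gene (horizontal axis) with its 95% confidence interval, in the 3 comparisons; filled points passed a limma adjusted p of 0.05. FIT2 is filled in both comparisons against Δire1, FIT1 in both comparisons of SSZ1OEΔire1Δscj1 and FTR1 in SSZ1OEΔire1Δscj1 against Δire1, while the intervals of FET3 and SIT1 are the widest.

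Below the threshold, the arrays of SSZ1OEΔire1 lay under those of Δire1 without overlap for 6 of the 9 genes, FET3, FTR1, FIT3, ARN1, ARN2 and ENB1, where 19.5% of all genes did so. None of the 6 passed the test, and the count depended on the scaling. It was 7 with quantile normalization (27.4% of all genes), 6 with median scaling (26.7%), 5 with normexp background correction (18.3%) and 1 with spike-in scaling (4.15%). FIT2 alone lay above without overlap, where 26.9% of all genes did, and the groups were separate in either direction for 46.4% of all genes. The median log2 difference of the 9 genes was −0.17, against 0.026 over all genes. In SSZ1OEΔire1Δscj1 against SSZ1OEΔire1, 4 of 9 genes lay above without overlap (FIT1, FIT2, FIT3 and ARN2), as did 29.5% of all genes (59% in either direction), and the median was 0.30 against −0.005. That count was 3 with quantile normalization (26.2% of all genes), 4 with median scaling (23.3%), 2 with normexp background correction (25.9%) and 6 with spike-in scaling (54.9%). In SSZ1OEΔire1Δscj1 against Δire1, 2 of 9 lay above, where 27.3% of all genes did, and 1 below, where 23.3% did (50.6% in either direction), and the median was 0.16 against 0.019.

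Replicates of SSZ1OEΔire1Δscj1 spread widely for 7 of the 9 genes, which was not so for most of them in the other strains. In SSZ1OEΔire1Δscj1, replicate 2 was the highest of its group for 8 of the 9 genes, FIT2 being the exception, while it was so for 39.7% of all genes. It was the highest of all 8 arrays for 7 of 9 genes, against 21.6% of all genes. The highest and lowest SSZ1OEΔire1Δscj1 arrays differed by 1.59 for FET3, more than for 99.4% of all genes, and by 1.48 for SIT1, more than for 99.1%, where the median gene differed by 0.20. The same range was 0.91 for FTR1, 0.85 for ENB1, 0.63 for ARN2, 0.59 for ARN1 and 0.51 for FIT3. FIT1 and FIT2, the genes that rose in this strain, were the exceptions, with ranges of 0.10 and 0.15. The median difference of the 9 genes between replicates 1 and 2 was 0.633, against 0.126 over all genes, and between replicates 1 and 3 it was 0.147, against 0.096.

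SIT1 and FET3 also varied in the other strains. In SSZ1OEΔire1 the 2 arrays differed by 0.85 for SIT1 and 0.56 for FET3, where the median gene differed by 0.10. They also differed by 0.45 for FIT1, more than for 93.9% of all genes, and by 0.30 for FIT2, more than for 87.2%. In Δire1 the range was 1.06 for SIT1 and 0.72 for FET3, where that of the median gene was 0.25, and replicate 2 was the highest for both. Most of the remaining genes were tight in Δire1, where FIT1 (0.20), FIT3 (0.17), ARN1 (0.11), ARN2 (0.11), FTR1 (0.10) and ENB1 (0.05) had smaller ranges than the median gene. FTR1 (0.07), ENB1 (0.05) and FIT3 (0.03) did so in SSZ1OEΔire1. SSZ1OEΔire1 replicate 1 was the lowest of all 8 arrays for 6 of 9 genes, against 8.03% of all genes. Spots of the same probe within an array agreed far more closely than that, with a median SD of 0.056 over genes and arrays (0.018 to 0.194) on 9 or 10 spots each. What set the replicates apart was not tested.

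**Figure D3:**
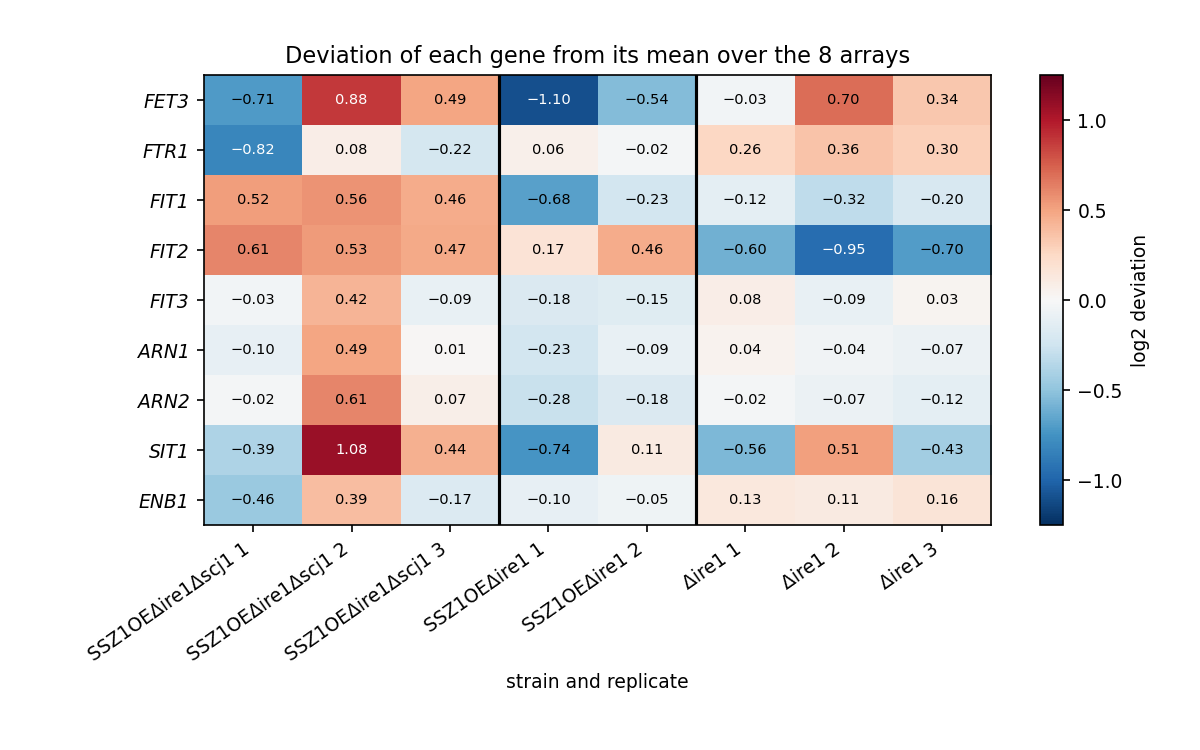
Deviation of each gene from its own mean over the 8 arrays (colour and printed value, log2), with genes in rows and arrays in columns, by strain and replicate. The SSZ1OEΔire1Δscj1 replicate 2 column is positive for all 9 genes, from 0.08 for FTR1 to 1.08 for SIT1. The FIT2 row sets the Δire1 columns apart from the rest, and the FIT1 row sets the SSZ1OEΔire1Δscj1 columns apart.

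Over the 8 arrays, which share a slide and hold 3 strains, the Pearson correlation between pairs of the 9 genes had a median of 0.53 over 36 pairs and ran from −0.74 (FTR1 with FIT2) to 0.98 (ARN1 with ARN2). ARN1, ARN2 and FIT3 were the only trio with correlations over 0.9, at 0.98, 0.94 and 0.91, and 6 pairs were below 0. For these genes SSZ1OEΔire1Δscj1 replicate 2 lay furthest from the mean of the 8 arrays, by 0.49, 0.61 and 0.42. How far that array sets the correlations was not tested. FET3 and FTR1, whose products work as a complex, had 0.43 over all arrays and 0.88 for deviations from the strain means. FIT1 and FIT2 had 0.55 over all arrays and 0.87 for such deviations. These values were not particular to the 2 pairs. For such deviations ARN2 with ENB1 had 0.96, FET3 with SIT1 0.93 and FTR1 with ENB1 0.92, while FTR1 with FIT2 had −0.33. ARN1 and ARN2 are related genes, and binding of either transcript to the other's probe was not tested.

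Of 3148 other tested genes with an SD over the 8 arrays of at least 0.2, those most like the mean profile of the 9 were GTO1, an omega-class glutathione transferase gene (r = 0.950), VMR1, a vacuolar ABC transporter gene (0.947), YCR101C (0.937), REC102, a meiotic recombination gene (0.921), and AAD4, a putative aryl-alcohol dehydrogenase gene (0.919). None of these 5 was called in any comparison. The mean profile stood at 0.56 on SSZ1OEΔire1Δscj1 replicate 2 and between −0.34 and 0.16 on the other arrays. The gene most like FIT1 was PRY2, which encodes a secreted sterol-binding protein (r = 0.985). Its log2 differences were 0.93 for SSZ1OEΔire1Δscj1 and −0.24 for SSZ1OEΔire1 against Δire1, and 1.17 between those strains. The gene most like FIT2 was VTH1, a homologue of the vacuolar sorting receptor gene VPS10 (r = 0.995), with 0.59 and 0.48 against Δire1 and 0.11 between the overexpressing strains. The nearest gene to FTR1 was the hexose transporter gene HXT4 (0.926), that to SIT1 was MHO1 (0.962), and that to ENB1 was GZF3, a GATA-factor gene (0.928). FET3 was nearest to YBR099C (0.927), FIT3 to NBL1 (0.985), ARN1 to IDP2 (0.954) and ARN2 to YCR101C (0.990). These are descriptions over 8 arrays.

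The genes on either side of the 9 were examined for changes shared with their neighbours. Of 13 such tested genes that are not themselves among the 9, 9 were higher and EFM1 was lower in SSZ1OEΔire1Δscj1 than in Δire1, with a median log2 difference of 0.61, where 21.4% of all genes were higher and 16.9% lower with a median of 0.019. In SSZ1OEΔire1 against Δire1, AAC1, HPA3, YOR381W-A and IMA2 were higher and none was lower (median 0.34), where 7.52% of all genes were higher and 3.91% lower (median 0.026). Between the overexpressing strains UBP5, COS8 and CSS3 were higher and HPA3 lower in SSZ1OEΔire1Δscj1 (median 0.13), where 6.3% of all genes were higher and 5.61% lower (median −0.005). The neighbour of FIT2 on the side away from FIT3, YOR381W-A, rose with it, by 0.99 in SSZ1OEΔire1Δscj1 (limma adjusted p = 0.00128) and 0.91 in SSZ1OEΔire1 (limma adjusted p = 0.00716) against Δire1. FRE5, on the far side of FIT3, did not pass the background filter in any strain. Next to FIT1, the glycerol transporter gene STL1 rose by 1.20 in SSZ1OEΔire1Δscj1 against Δire1 (limma adjusted p = 0.0134), and HSP31 did not pass (0.27, limma adjusted p = 0.254). Both neighbours of ARN2, COS8 and PAU13, rose in SSZ1OEΔire1Δscj1 against Δire1, by 0.67 (limma adjusted p = 0.012) and 0.52 (limma adjusted p = 0.0188), where ARN2 itself was not called. Next to ENB1, which was not called, the isomaltase gene IMA2 rose in both overexpressing strains, by 0.62 in SSZ1OEΔire1Δscj1 (limma adjusted p = 0.00409) and 0.60 in SSZ1OEΔire1 (limma adjusted p = 0.017).

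Of the genes that regulate iron, 1 of 8 was called in each comparison with Δire1. Of all genes, 38.3% were called in SSZ1OEΔire1Δscj1 and 11.4% in SSZ1OEΔire1. The regulator called was YAP5, which encodes the activator of the vacuolar iron importer CCC1 when iron is high. YAP5 read −4.44, −4.05 and −4.14 in SSZ1OEΔire1Δscj1, −4.32 and −4.09 in SSZ1OEΔire1, and −5.37, −5.36 and −5.41 in Δire1. All 5 overexpressing arrays lay above the 3 Δire1 arrays, and the overexpressing strains overlapped each other. YAP5 rose by 1.17 in SSZ1OEΔire1Δscj1 (limma adjusted p = 0.000727) and 1.18 in SSZ1OEΔire1 (limma adjusted p = 0.00387), in all 18 alternatives of each. CCC1, named after its values were seen, was not called against Δire1. It differed by −0.01 in SSZ1OEΔire1Δscj1 (limma adjusted p = 0.918) and −0.03 in SSZ1OEΔire1 (limma adjusted p = 0.839). AFT1 and AFT2, also named after their values were seen, were not called. AFT1 differed from Δire1 by 0.25 in SSZ1OEΔire1Δscj1 (limma adjusted p = 0.0971) and 0.05 in SSZ1OEΔire1 (limma adjusted p = 0.811), and AFT2 by −0.04 (limma adjusted p = 0.794) and 0.26 (limma adjusted p = 0.206). Between the overexpressing strains limma called none of the 8 regulators, where 11.9% of all genes were called, and 1 had an unadjusted p under 0.05.

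The metalloreductases include the surface reductases of the reductive route. Of 7 tested genes of the family, limma called none in SSZ1OEΔire1 against Δire1 or between the overexpressing strains, where 11.4% and 11.9% of all genes were called. In each of these comparisons 2 had an unadjusted p under 0.05. In SSZ1OEΔire1Δscj1 against Δire1, where 38.3% of all genes were called, limma called 1 of the 7. It was FRE6, a vacuolar reductase gene, higher by 0.48 (limma adjusted p = 0.0291). That call was lost in 8 of 18 alternatives, including those without SSZ1OEΔire1Δscj1 replicate 2 (0.34, limma adjusted p = 0.0554), without SSZ1OEΔire1Δscj1 replicate 3 (0.52, limma adjusted p = 0.0522) and without each Δire1 array in turn.

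Among 14 genes of copper supply and of low-affinity or organelle iron transport, 5 were higher and 1 lower in SSZ1OEΔire1Δscj1 than in Δire1, where 21.4% and 16.9% of all genes were, and the list's median log2 difference was 0.22 against 0.019 over all genes. The gene that fell was FET4, the low-affinity iron transporter gene. FET4 read −2.55, −2.36 and −2.37 in SSZ1OEΔire1Δscj1, −2.23 and −2.19 in SSZ1OEΔire1, and −1.55, −1.66 and −1.59 in Δire1. Every overexpressing array lay below every Δire1 array. It fell by 0.83 in SSZ1OEΔire1Δscj1 (limma adjusted p = 0.000627) and by 0.61 in SSZ1OEΔire1 (limma adjusted p = 0.00779). In SSZ1OEΔire1 it was the only gene of the list called, where 11.4% of all genes were. With spike-in scaling both calls were lost (−0.41 and −0.51, limma adjusted p = 0.116 and 0.347). That of SSZ1OEΔire1 was also lost within slide row 1 (−0.61, limma adjusted p = 0.0984) and without SSZ1OEΔire1 replicate 2 (−0.63). Without Δire1 replicate 2, the list had 2 higher genes and 1 lower in SSZ1OEΔire1.

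The genes of that list that rose in SSZ1OEΔire1Δscj1 against Δire1 were CTR3, a plasma membrane copper transporter gene (0.84, limma adjusted p = 0.008), SMF1, a manganese and divalent metal transporter gene (0.58, limma adjusted p = 0.0126), and 3 vacuolar transporter genes. These were FTH1 (0.41, limma adjusted p = 0.0342), SMF3 (0.32, limma adjusted p = 0.0415) and CTR2 (0.22, limma adjusted p = 0.0283). CTR3 was called in all 18 alternatives, whereas the call was lost in 2 of them for SMF1, 10 for FTH1, 11 for SMF3 and 10 for CTR2. The higher count was 1 with slide row as a block, 2 within slide row 2, with quantile normalization or median scaling and without Δire1 replicate 1 or 3, and 9 with spike-in scaling. It was 3 without SSZ1OEΔire1Δscj1 replicate 2 or 3 or either SSZ1OEΔire1 array. CTR2 was also higher in SSZ1OEΔire1Δscj1 than in SSZ1OEΔire1 (0.34, limma adjusted p = 0.0272), a call lost in 10 of 17 alternatives.

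Of 4 tested genes that spare iron when it is short, TIS11, which encodes an RNA-binding protein that promotes decay of transcripts for iron-using proteins, read −3.88, −2.43 and −3.97 in SSZ1OEΔire1Δscj1, −5.12 and −4.97 in SSZ1OEΔire1, and −5.13, −4.48 and −5.43 in Δire1. All SSZ1OEΔire1Δscj1 arrays lay above the others, with replicate 2 the highest, as for most of the uptake genes. It rose by 1.59 against Δire1 (SE 0.42, limma adjusted p = 0.0223) and was not called against SSZ1OEΔire1 (1.62, limma adjusted p = 0.0637). The call against Δire1 was lost without Δire1 replicate 1 (1.53, limma adjusted p = 0.0636) and without Δire1 replicate 3 (1.38, limma adjusted p = 0.0739). It was also lost with slide row as a block (2.01, limma adjusted p = 0.0573) and within slide row 2 (2.01). VHT1, the biotin transporter gene, fell in SSZ1OEΔire1Δscj1 by 0.52 against Δire1 (limma adjusted p = 0.00224) and by 0.66 against SSZ1OEΔire1 (limma adjusted p = 0.00949). The call against SSZ1OEΔire1 was lost without SSZ1OEΔire1 replicate 1 (−0.58, limma adjusted p = 0.0972), with slide row as a block (−0.74, limma adjusted p = 0.187) and with spike-in scaling (−0.35, limma adjusted p = 0.353). That against Δire1 was lost with spike-in scaling (−0.10, limma adjusted p = 0.701). In SSZ1OEΔire1 against Δire1, limma called none of the 4, where 11.4% of all genes were called, and none had an unadjusted p under 0.05.

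Downstream of uptake, 16 genes for iron-containing enzymes included 6 that fell and 1 that rose in SSZ1OEΔire1Δscj1 against Δire1, where 16.9% of all genes fell and 21.4% rose. The median of these genes was −0.24, against 0.019 over all genes, and with spike-in scaling 0 of them fell and it was 0.18, against 0.435 over all genes. The largest decreases were in MET5 (sulfite reductase, −0.88, limma adjusted p = 0.0107), ILV3 (dihydroxyacid dehydratase, −0.84, limma adjusted p = 0.0032), ERG25 (sterol methyl oxidase, −0.76, limma adjusted p = 0.0111), LYS4 (homoaconitase, −0.74, limma adjusted p = 0.00464) and GLT1 (glutamate synthase, −0.56, limma adjusted p = 0.0139). BIO2, the biotin synthase gene, was the one that rose (0.51, limma adjusted p = 0.0441), a call lost in 12 of 18 alternatives. In SSZ1OEΔire1 against Δire1, limma called none of the 16, where 11.4% of all genes were called, although 7 had an unadjusted p under 0.05. Without Δire1 replicate 2 it called 3 as lower. Between the overexpressing strains, where 11.9% of all genes were called, the only gene called was LIP5, the lipoic acid synthase gene (0.36, limma adjusted p = 0.04). That call was lost in 10 of 17 alternatives.

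Of 19 genes for iron-sulfur cluster assembly, 4 rose and 4 fell in SSZ1OEΔire1Δscj1 against Δire1, with a median of 0.02, shares near those of all genes (21.4% higher, 16.9% lower, median 0.019). The scaffold gene ISU1 rose by 0.43 in SSZ1OEΔire1Δscj1 (limma adjusted p = 0.027) and by 0.94 in SSZ1OEΔire1 (limma adjusted p = 0.00879). The second call was lost within slide row 1 (0.93, limma adjusted p = 0.0532) and without either SSZ1OEΔire1 array (0.84 and 1.03). The first call was lost in 6 of 18 alternatives, among them those without Δire1 replicate 1 (limma adjusted p = 0.065) and Δire1 replicate 3 (limma adjusted p = 0.0807). CIA1, a cluster-targeting factor gene, fell in SSZ1OEΔire1 against Δire1 (−0.30, limma adjusted p = 0.0421), a call lost in 10 of 18 alternatives. Between the overexpressing strains, where 11.9% of all genes were called, CFD1, a cytosolic scaffold gene, was the one called (0.41, limma adjusted p = 0.023), lost in 7 of 17. The others that rose in SSZ1OEΔire1Δscj1 against Δire1 were NBP35, CFD1 and GRX5, and those that fell were YAH1, NAR1, DRE2 and TAH18, with log2 differences from −0.46 to −0.36. That comparison had 2 higher and 4 lower genes without SSZ1OEΔire1Δscj1 replicate 2, 1 and 3 without Δire1 replicate 3, and no call in either direction when slide row was a block. Of 8 heme synthesis genes, 3 fell in SSZ1OEΔire1Δscj1 against Δire1 (HEM1, −0.38, HEM3, −0.32, and HEM12, −0.32), where 16.9% of all genes did. In SSZ1OEΔire1 against Δire1, 1 fell (HEM12, −0.36, limma adjusted p = 0.0421), where 3.91% of all genes did. The heme count in SSZ1OEΔire1Δscj1 was 1 without its replicate 2, 5 without Δire1 replicate 2 and 0 with spike-in scaling, and that in SSZ1OEΔire1 was 3 without Δire1 replicate 2. The HEM12 call in SSZ1OEΔire1 was lost in 11 of 18 alternatives, including spike-in scaling, slide row as a block and the left-out arrays other than Δire1 replicate 2. Between the overexpressing strains limma called none of the 8, where 11.9% of all genes were called, and none had an unadjusted p under 0.05.

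**Figure D4:**
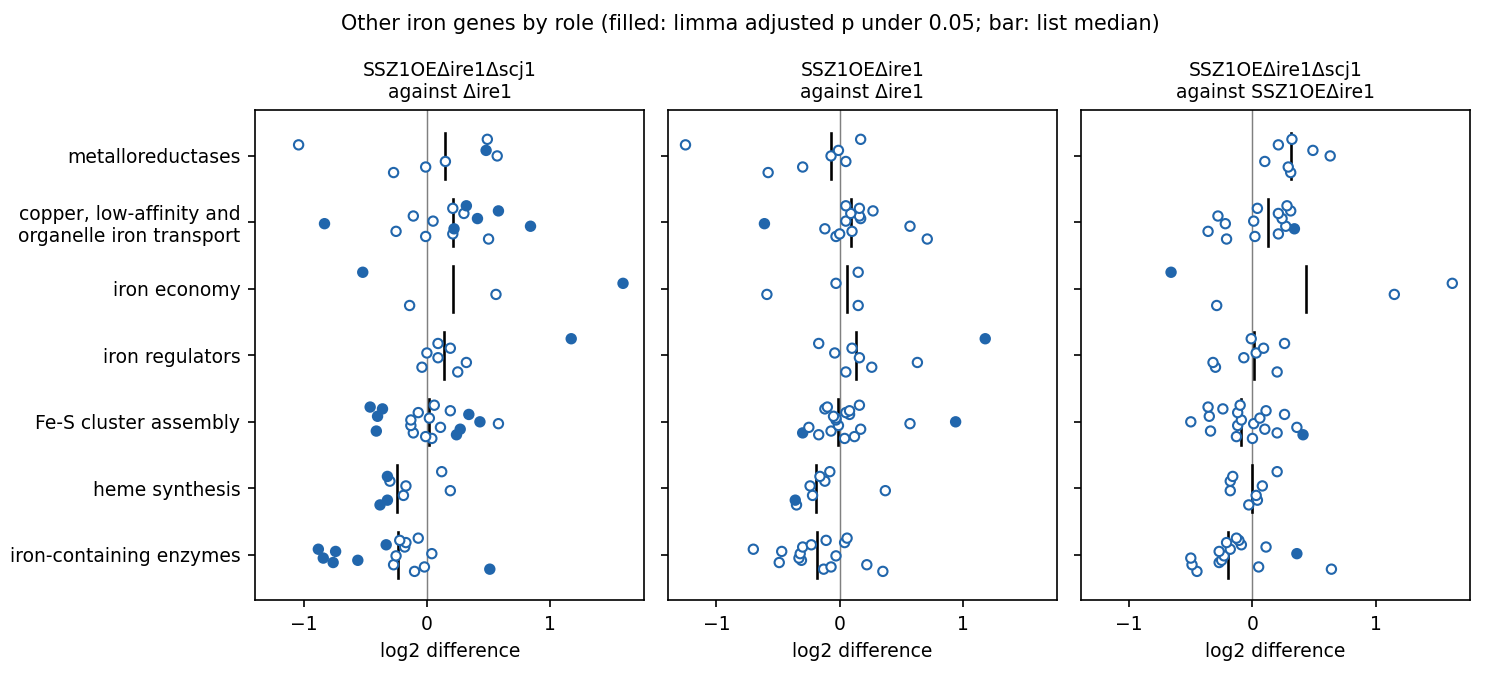
Log2 differences (horizontal axis) of the other iron genes tested, grouped by role, in the 3 comparisons; each point is 1 gene, filled where its limma adjusted p was under 0.05, and the vertical bar is the median of the list. In SSZ1OEΔire1Δscj1 against Δire1 most filled points of the iron-containing enzymes and heme synthesis lie left of 0, and those of copper, low-affinity and organelle transport lie right of 0 apart from FET4.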

How the data were processed

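RNA of 8 yeast samples in 3 strains was labelled with Cy3 from 100 ng of total RNA and hybridised to 1-colour Agilent arrays, per the labels. The submitters' processing notes name Agilent Feature Extraction 10.7.1.1 as the image-reading software. The deposited scanner files give each of 62976 spots an intensity (the processed signal, background-subtracted and spatially detrended within the array per the file headers). The deposited table of log2 values matched the processed signal after 75th percentile scaling and centring on each probe's median (column medians −0.0322 to 0.0107). Its centring is not given in the sources used here, and it served as an alternative.

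The log2 processed signal was averaged over the non-outlier spots of a probe and the array's 75th percentile was subtracted. The brightest probe stood for a name with several (39 names). Genes well above background in more than 0.5 of spots on every array of at least 1 group were tested, and 5903 names matched RefSeq. limma 3.58.1 (R 4.3.3) fitted 3 group means over all 8 arrays, two-sided, with Benjamini-Hochberg adjustment over all 6240 genes in each of 3 comparisons. The fit was tested on simulated data. The number of arrays limits the precision.

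Alternatives were normexp background correction (offset 50, on median signals, since the files hold no mean signal), quantile, median and spike-in scaling (7 spike-in probes), the deposited table, no filter on dim probes, the mean over probes, slide row as a block, comparison within a slide row, replicate number as a block, and leaving out each array. The counts of the pathway lists under these settings were added after the data were seen. The members and lists were chosen with earlier results of these data known. The 9 genes are all named. From the other lists up to 5 called genes with the largest differences per list and comparison are named. All called genes behind a count of 5 or fewer are named, except for counts under the alternatives. Both neighbours of each member and the genes of highest correlation were also eligible.

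Same-numbered arrays of different strains had deviations from the group means that correlated by −0.037 to 0.207, and the labels tie them to no shared day or culture, so the numbers were not taken as pairs. No sequence is shown, as probe sequences were not used here.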

Additional observations from a re-analysis of the deposited data

How the results depend on the processing

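The FIT2 and FIT1 increases in SSZ1OEΔire1Δscj1 against Δire1 were called in all 18 alternatives. These were not all independent checks. The deposited table matched the scaled signal, and the mean over probes left the counts of the 9 genes unchanged. Within slide row 2, replicate 3 was the only Δire1 array. Of the 9 genes, SSZ1OEΔire1Δscj1 against Δire1 gave 3 calls and 2 to 4 with an array left out. SSZ1OEΔire1 against Δire1 gave 1 call, 2 with quantile normalization (FIT1 also, −0.45), 0 within slide row 1, and 0 to 2 with an array left out. SSZ1OEΔire1Δscj1 against SSZ1OEΔire1 gave 1 call, 0 with slide row as a block, and 0 to 1 with an array left out. ARN2 was called higher in SSZ1OEΔire1Δscj1 than in Δire1 with spike-in scaling (0.71).

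Counts over all genes moved more. SSZ1OEΔire1 against Δire1 gave 713 (469 higher, 244 lower), 205 with spike-in scaling, 252 with slide row as a block, 75 within slide row 1 and 60 to 1507 with an array left out. SSZ1OEΔire1Δscj1 against Δire1 gave 2390 (1333 higher, 1057 lower), 1065 with slide row as a block, 1154 within slide row 2 and 1440 to 3165 with an array left out. SSZ1OEΔire1Δscj1 against SSZ1OEΔire1 gave 743 (393 higher, 350 lower), 161 with spike-in scaling, 2 with slide row as a block and 3 to 1528 with an array left out. With the replicate block the counts were 289, 2048 and 597 in the same order of comparisons. The block ended the call of FTR1 (−0.63, limma adjusted p = 0.0566) and no other call among the 9 genes. Of 8 arrays, 5 correlated best with an array of their own number.

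The split of calls also depended on the scaling. It was 339 higher and 376 lower with quantile normalization, 371 and 347 with median scaling and 184 and 21 with spike-in scaling for SSZ1OEΔire1 against Δire1. For SSZ1OEΔire1Δscj1 against Δire1 it was 943 and 1381, 989 and 1573, and 2023 and 43. For SSZ1OEΔire1Δscj1 against SSZ1OEΔire1 it was 423 and 650 with normexp background correction and 150 and 11 with spike-in scaling. Spike-in scaling moved the median log2 difference of all genes to 0.131, 0.435 and 0.306 in these comparisons.

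Among the 9 genes, signs turned only for differences that were not called. Of the called genes on the other iron lists, DRE2, NAR1, TAH18, HEM1, HEM3, HEM12 and RLI1 in SSZ1OEΔire1Δscj1 against Δire1 turned to between 0.01 and 0.10 with spike-in scaling, without passing the test. In SSZ1OEΔire1Δscj1 against Δire1, FIT3 became −0.10 with quantile normalization, −0.01 with median scaling and −0.07 to 0.19 with an array left out, and ARN1 became −0.12 with quantile normalization and −0.02 to 0.28 with an array left out, both lowest without SSZ1OEΔire1Δscj1 replicate 2. FET3 became 0.30 with spike-in scaling, 0.34 without SSZ1OEΔire1Δscj1 replicate 1 and 0.06 without Δire1 replicate 2, and ENB1 became 0.20 with spike-in scaling. In SSZ1OEΔire1Δscj1 against SSZ1OEΔire1, ENB1 became 0.30 with spike-in scaling, 0.01 with the replicate block and −0.24 to 0.18 with an array left out, and SSZ1 became 0.07 with quantile normalization. In SSZ1OEΔire1 against Δire1, SIT1 ran from −0.58 to 0.27 with an array left out and was positive without SSZ1OEΔire1 replicate 1 or Δire1 replicate 2. The causes of these changes were not tested. SSZ1OEΔire1 had 2 arrays, so leaving out either assumes that the remaining array varies like the other groups. No slide row held both overexpressing strains, so their comparison had no value within a row.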
